A study of Mus musculus with 2 samples.

Results

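Serpins are a family of proteins that share a fold, most of which inhibit proteases. The family was followed here in keratinocytes sorted from mouse dorsal skin. Its members were taken by name, as every listed gene called Serpin with a clade letter from a to i, a number and any letters after it, and pseudogenes marked -ps were left out. This gave 64 of the 50559 genes in the count tables: 28 of clade B, 25 of clade A, 3 of clade E, 2 each of clades F and I, and 1 each of clades C, D, G and H. The name rule itself used no measured value, but the family was chosen with earlier results of these data known. All RNA came from 1 group of 2 libraries, replicates 1 and 2, made from live GFP+ cells of Polr2b fl/fl GFP mice with Cre under the keratin 14 promoter (K14Cre), at postnatal day 21. The skin was in telogen, when hair follicles rest, and Polr2b codes for a core subunit of RNA polymerase II. Both libraries carry the same alleles, so there is no group without the floxed gene or the Cre to compare with. Whether they stem from different animals is not in the labels, and p-values between them measure only how these libraries differ.

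An inhibitory serpin offers a flexible loop near its carboxyl end as bait. When the protease cuts the loop, the serpin snaps into a new shape and traps the enzyme. Clade B serpins lack a classical signal peptide, act largely inside cells and include several that are typical of surface epithelia. Clades A, E, F and G are mostly secreted, and clade H is a collagen chaperone of the endoplasmic reticulum. In skin, serpins meet the kallikreins that shed the cornified layer, the plasminogen activators of wounds, the granule proteases of immune cells and the cathepsins of lysosomes.

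Clade B genes are held in 2 clusters of the mouse genome, 12 on chromosome 1 and 16 on chromosome 13, in RefSeq's annotation of GRCm38.p6. Upstream sequence is shown first because most of the expressed genes of the chromosome 1 cluster held a short word there. The word is the heptamer TGANTCA, which reads alike on both strands. Its form TGAGTCA is the element known to bind AP-1, the Fos and Jun family of transcription factors. Each line gives the bases around 1 occurrence upstream of the start site, 5′ to 3′, with the heptamer in capitals.
Serpinb5: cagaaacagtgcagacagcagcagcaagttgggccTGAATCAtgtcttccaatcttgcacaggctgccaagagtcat
Serpinb12: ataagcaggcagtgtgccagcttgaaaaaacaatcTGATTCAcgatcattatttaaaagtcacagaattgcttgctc
Serpinb11: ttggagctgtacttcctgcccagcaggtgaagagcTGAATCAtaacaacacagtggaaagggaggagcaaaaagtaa
Serpinb7: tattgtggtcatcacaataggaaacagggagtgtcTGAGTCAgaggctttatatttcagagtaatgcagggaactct
Serpinb2: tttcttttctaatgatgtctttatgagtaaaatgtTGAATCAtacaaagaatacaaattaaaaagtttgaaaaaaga
Serpinb10: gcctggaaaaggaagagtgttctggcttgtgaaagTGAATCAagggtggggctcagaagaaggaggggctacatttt
Serpinb8: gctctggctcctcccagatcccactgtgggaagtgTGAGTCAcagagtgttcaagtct

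These stretches come from RefSeq on GRCm38.p6, all on the plus strand of chromosome 1. They lie at chr1:106861000-106861076 for Serpinb5, chr1:106934369-106934445 for Serpinb12, chr1:107362203-107362279 for Serpinb11, chr1:107422609-107422685 for Serpinb7, chr1:107511294-107511370 for Serpinb2, chr1:107528914-107528990 for Serpinb10 and chr1:107589948-107590005 for Serpinb8. The first base of the heptamer stood 23 bases upstream of the start in Serpinb8, 45 in Serpinb7 and Serpinb12, 54 in Serpinb10, 76 in Serpinb11, 94 in Serpinb2 and 140 in Serpinb5. The windows searched ran from 250 bases before to 50 after each start, and 54 of the 64 members had one. TGANTCA was present in 7 of 11 clade B genes on chromosome 1, in 0 of 15 on chromosome 13 and in 4 of 24 genes of clades A, E, F, G and H, beside 8.97% of 27025 genes with a window, or 7.81% of 32851 windows. The 4 chromosome 1 genes without it were the Serpinb3 copies, and the 4 clade A genes with it were the closely related liver genes Serpina1a, Serpina1b, Serpina1c and Serpina1d. Among the 7 clade B genes, the AP-1 form itself was in Serpinb7 and Serpinb8, while the other 5 had an A or T in the middle. That form was held by 2.81% of all windows, against 5.20% for the AP-1 form. The 4 Serpina1 genes held the AP-1 form too, as TGACTCA, its reading on the opposite strand. All 7 clade B genes with the heptamer passed 1 CPM, a count scaled to the library total, in both libraries, and none of the 16 clade B genes below that level with a window had it. Of the 10 clade B genes above it that had a window, 3 lacked the heptamer: Serpinb3b, Serpinb6a and Serpinb9. In clades A, E, F, G and H, none of the 12 genes above 1 CPM with a window had the heptamer. The 4 Serpina1 genes that held it had no count in either library, except Serpina1b with 0 and 1. The match describes letters only, and binding there was not measured. The word was picked after levels were known, and 4 others were searched beside it, all on both strands. The TATA box TATAAA was in 7 of the 11 chromosome 1 genes and in 13.6% of all windows. The GC box GGGCGG was in 1 of 11 and in 35.7% of all. The heat shock word GAANNTTC was in 2 of 11 and in 7.86%, and the E-box CACGTG was in none of the 11 and in 7.15%.

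The libraries held 36692204 and 33489967 counts, of which the family took 0.239% and 0.249%. The sorted cells carried the RNA of their label. All 11 basal, 7 spinous and 11 epithelial junction markers passed 1 CPM in both libraries, led by the keratins Krt5 and Krt10 and the desmosome gene Dsp. RNA of other skin cells was abundant too. Summed CPM was 13640 (replicate 1) and 6752 (replicate 2) for the 10 fibroblast markers, led by Col1a1, and 8486 and 9360 for the 10 macrophage markers, led by Mrc1, beside 12048 and 16380 for the basal list. Mast cell markers summed to 14.0 and 6.24 CPM with Fcer1a at 0. T and NK cell markers summed to 4.44 and 2.99 CPM with Trdc at 0, and hepatocyte markers to 0.954 and 1.43 CPM. Neutrophil markers summed to 32.8 and 29.6 CPM with Ly6g at 0, but Csf3r alone gave 31.83 and 28.01 CPM of this. The other neutrophil markers were low, with 19 and 47 counts for Mpo, 8 and 0 for S100a8, 4 and 4 for S100a9 and 3 and 1 for Retnlg. Which cells made a serpin's RNA was therefore not measured.

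Of the 64 serpins, 27 reached 1 CPM in both libraries, or 42.2%, beside 31.3% of all listed genes. These were 11 of 28 in clade B, 9 of 25 in clade A, 2 of 3 in clade E, the Serpinf1 and Serpinf2 genes of clade F, Serping1, Serpinh1 and, of the other clades, Serpind1. Another 22 had counts below that level and 15 had none in either library. With 3 counts as the floor for counting error, a gene without counts could still have 0.0818 (replicate 1) or 0.0896 CPM (replicate 2). Levels of different genes are compared below as TPM, the scaled share of transcripts, which divides counts by the deposited gene length. They are given for replicate 1, then replicate 2, then as mean ± SD with n = 2. Levels carry no p-value, since 0.5 is the smallest p that a two-sided sign-flip test gives for a pair of libraries.

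Clade B held most of the family's RNA through a few genes, in replicate 1 only with Serpinb2 counted. It summed to 1563 TPM in replicate 1 and 2141 TPM in replicate 2, against 1066 and 620 TPM for clades A, E, F, G and H together. Its share of the family's TPM was 59.3% and 77.4%, or 68.4 ± 12.8% (SD, n = 2), and it was 46.0% and 62.2% (54.1 ± 11.4%) when Serpinb2, its leading gene, was left out of both sums. The typical clade B gene, in contrast, was the lower one. The median of log2(TPM + 0.5) over all 28 clade B genes was below that of the 32 genes of clades A, E, F, G and H by 1.07 in replicate 1 and 0.86 in replicate 2. That order did not survive other ways of counting a gene: with the lettered copies of one number summed into 1 unit the difference turned to 3.50, with clade B higher. It was 0.0038 when genes under 10 counts were set aside. Fewer cells of a type and less RNA per cell cannot be told apart in these bulk libraries.

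**Figure D1:**
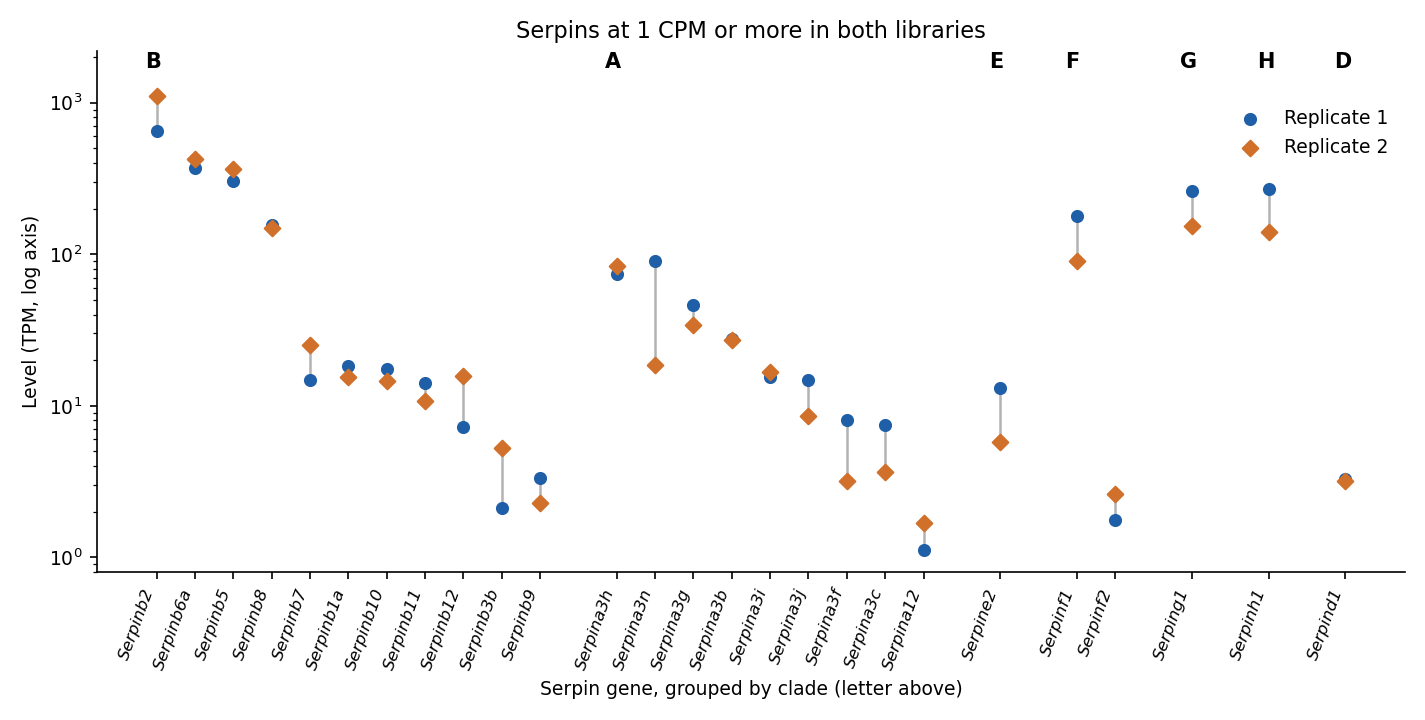
Level of serpins that passed 1 CPM in both libraries (1 of the 27 is not shown), in TPM on a log axis, grouped by clade and ordered by mean within it; the circle is replicate 1, the diamond is replicate 2 and the grey line joins them. Serpinb2, Serpinb6a and Serpinb5 lead the family in both libraries, and Serpine2, Serpinf1, Serping1 and Serpinh1 lie lower in replicate 2.

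Serpinb2, plasminogen activator inhibitor 2, which inhibits urokinase, was the most abundant serpin. It had 19680 and 30766 counts, or 649 and 1114 TPM (882 ± 329), and ranked at the 99.2 percentile of the genes that passed 1 CPM. Serpinb6a followed, a broad intracellular inhibitor of trypsin-like proteases and cathepsin G, at 370 and 422 TPM (396 ± 36.5). Serpinb5, or maspin, a serpin that does not inhibit proteases and is typical of basal epithelia, stood next at 306 and 363 TPM (334 ± 40.2). These 3 genes made up 84.8% and 88.7% of clade B. Serpinb2 exceeded Serpinb6a in both libraries, by 1.75-fold and 2.64-fold. The TPM range of each of the 3 over the libraries stayed clear of the next gene in the order. The order of Serpinb6a and Serpinb5 rests on the deposited lengths. In CPM, Serpinb5 was the higher in both libraries, at 333 and 394 against 313 and 356. Exons of Serpinb6a overlap opposite-strand genes and those of Serpinb2 overlap Serpinb10 on the same strand, so some counts could belong to the neighbour.

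Serpinb8, which inhibits furin, was the fourth clade B gene, at 157 and 149 TPM (153 ± 5.92). It was also the steadiest of the leading 4. The other clade B genes lay well below it. Serpinb8 was 10.6-fold and 5.93-fold above Serpinb7, the next in the mean, whose loss of function causes a palm and sole keratoderma in people. Serpinb7 had 14.8 and 25.1 TPM (19.9 ± 7.27). Serpinb1a, which inhibits neutrophil elastase and cathepsin G, had 18.4 and 15.6 TPM (17.0 ± 1.95), and Serpinb10 had 17.5 and 14.7 TPM (16.1 ± 1.97). The ranges of Serpinb7, Serpinb1a and Serpinb10 overlap, so their order is not settled. Serpinb11 stood at 14.1 and 10.8 TPM (12.4 ± 2.36) and Serpinb12 at 7.28 and 15.8 TPM (11.5 ± 6.0003).

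The last clade B genes above 1 CPM were low. Serpinb3b, a relative of the human squamous cell carcinoma antigens, had 51 and 116 counts, or 2.11 and 5.27 TPM. Serpinb9, the inhibitor of granzyme B, had 265 and 165 counts, or 3.36 and 2.30 TPM. Its target was not seen, as Gzmb had no count in either library. Serpinb6c reached 1 CPM only in replicate 2, with 35 and 55 counts.

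The chromosome 1 and chromosome 13 clusters of clade B differed in how many of their genes were expressed. On chromosome 1, 8 of 12 passed 1 CPM in both libraries, and on chromosome 13, 3 of 16 did: Serpinb6a, Serpinb1a and Serpinb9. These are 66.7% and 18.8%, beside 31.3% of all listed genes. The chromosome 1 cluster summed to 1168 and 1698 TPM and the chromosome 13 cluster to 395 and 443 TPM, of which Serpinb6a alone gave the greater part. The 16 chromosome 13 genes are all copies within the Serpinb1, Serpinb6 and Serpinb9 subfamilies, and each subfamily had 1 leading copy above 1 CPM. The contrast between the clusters therefore depends on counting each copy as a gene. Of the 8 Serpinb9 genes, 6 had no count, Serpinb9b had 6 and 0, and Serpinb9 itself had the counts above. Serpinb9f and Serpinb9g share 38.6% and 30.9% of their 150-base stretches with transcripts of other genes, so their lack of counts is uncertain. Of the 5 Serpinb6 genes, Serpinb6d and Serpinb6e had 1 count in each library and Serpinb6b had 20 and 12. The Serpinb1 copies Serpinb1c and Serpinb1b had 8 and 3 counts and 1 and 0 counts. On chromosome 1 the copies of Serpinb3b were low or silent: Serpinb3a had 9 and 1 counts, Serpinb3c 1 and 0, and Serpinb3d none. Serpinb13, a keratinocyte inhibitor of cathepsins L and K, had 5 and 23 counts.

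**Figure D2:**
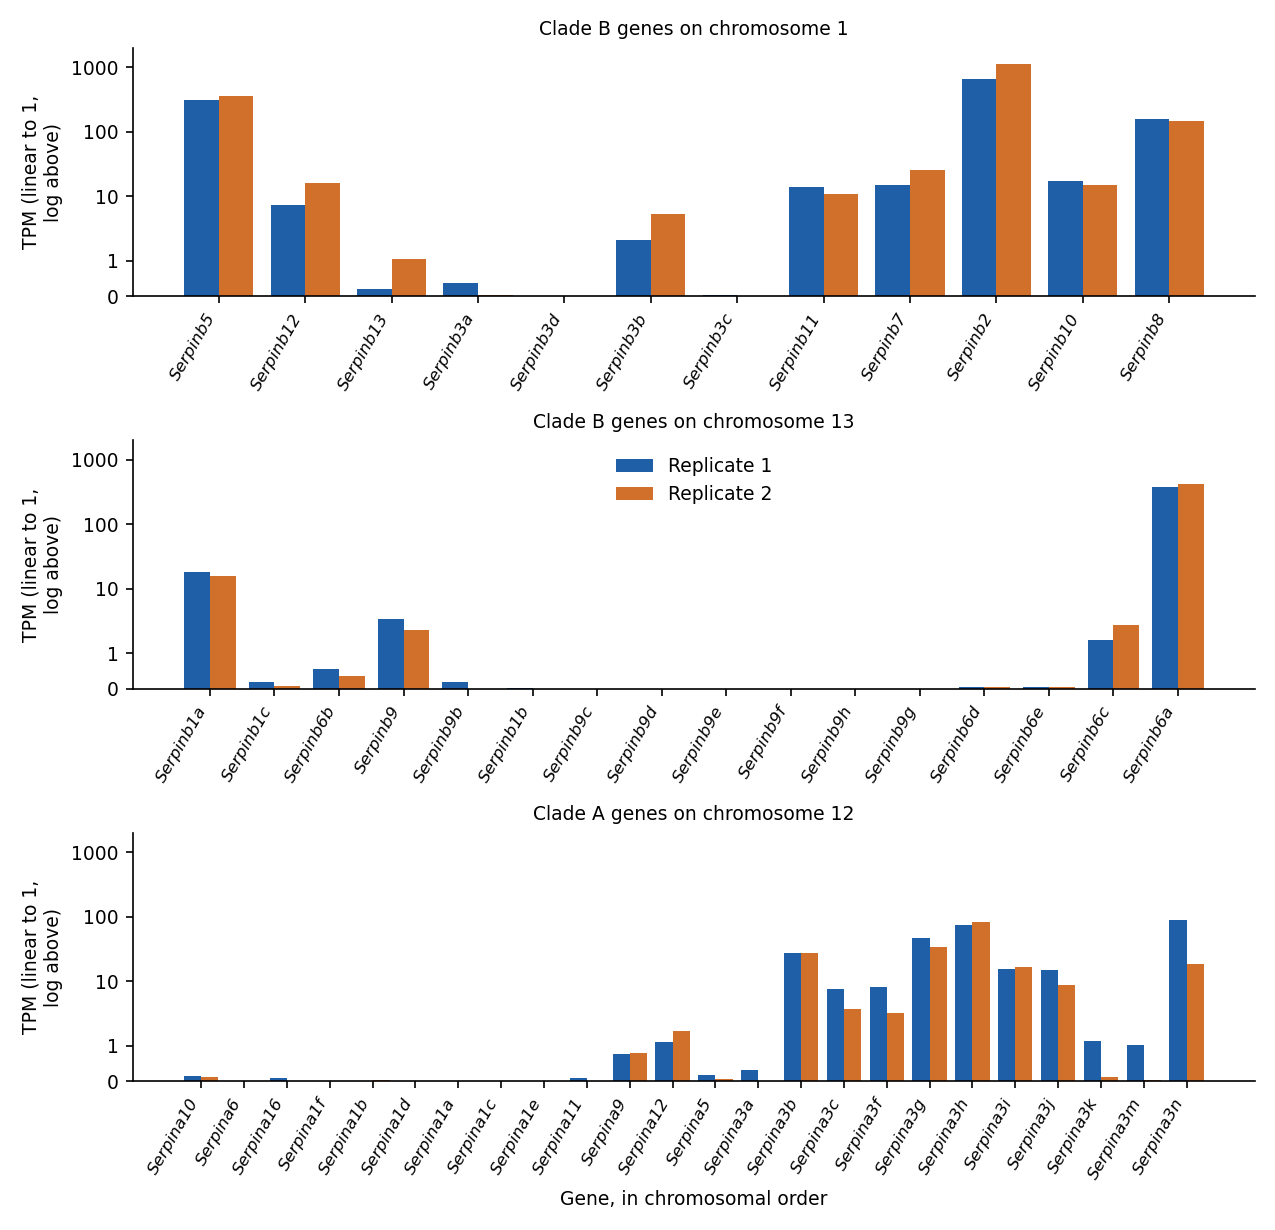
Level of every clade B gene on chromosomes 1 and 13 and every clade A gene on chromosome 12, in TPM, in chromosomal order from RefSeq's annotation of GRCm38.p6; the axis is linear up to 1 TPM and logarithmic above, and the paired bars are replicates 1 and 2. On chromosome 1 the tall bars lie on both sides of Serpinb13 and the Serpinb3 genes, on chromosome 13 Serpinb6a at the right end is the tallest, and on chromosome 12 the Serpina3 genes stand out.

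Clade A RNA was almost wholly that of Serpina3 genes. Clade A proteins are largely made by liver and carried in plasma, and the Serpina3 group has many copies in the mouse. Of 11 Serpina3 genes, 8 passed 1 CPM, while of the 6 Serpina1 genes, which encode alpha-1-antitrypsin, 5 had no count and Serpina1b had 0 and 1. Serpina3 genes summed to 286 and 195 TPM of the 288 and 198 TPM of clade A. Serpina3h led in the mean, at 74.3 and 83.1 TPM (78.7 ± 6.18), although RefSeq classes it as a transcribed pseudogene. Serpina3n, which inhibits granzyme B and other serine proteases and is induced in acute inflammation, had 89.9 and 18.6 TPM (54.2 ± 50.4). No other serpin above 1 CPM was as uneven. Serpina3g stood at 46.0 and 34.2 TPM, Serpina3b at 27.5 and 27.2 TPM and Serpina3i at 15.5 and 16.7 TPM. Serpina3j had 14.8 and 8.58 TPM, Serpina3f 8.05 and 3.17 TPM and Serpina3c 7.44 and 3.65 TPM. The only clade A gene outside this group to pass 1 CPM was Serpina12, or vaspin, with 61 and 84 counts. None of the 8 Serpina3 genes above 1 CPM shared an exact 150-base stretch, the length of a read, with a transcript of another gene in GENCODE M21. Of the 63 family members with a transcript there, 17 did share such a stretch, among them genes without counts. Shared were 59.7% of the 150-base stretches of Serpina1c, 40.7% of those of Serpina1a and 38.6% of those of Serpinb9f. The sources used here do not give how reads with mismatches or several mapping places were counted. Separate counts of the Serpina3 copies, and counts of 0 in genes that share stretches, therefore stay uncertain.

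Clades E, F, G and H, secreted serpins and a chaperone, have 7 genes here, of which 4 reached 10 CPM in both libraries. Serping1, the C1 inhibitor of the complement and contact systems, had 262 and 154 TPM (208 ± 76.0). Serpinh1, or Hsp47, the chaperone that binds procollagen, had 270 and 141 TPM (205 ± 91.0). Serpinf1, the anti-angiogenic factor PEDF, had 179 and 90.3 TPM (135 ± 62.8). The ranges of these 3 overlap with one another and with that of Serpinb8, so their order in the family is not settled. Serpine2, or protease nexin 1, which inhibits thrombin and urokinase, had 13.003 and 5.77 TPM (9.39 ± 5.11). At 13.4 and 5.94 CPM, it is not among the genes that reached 10 CPM in both libraries. Serping1, Serpinh1, Serpinf1 and Serpine2 were each higher in replicate 1. Serpinf2, the antiplasmin, was low, at 57 and 78 counts, and Serpine3 had 47 and 19. Of the plasma serpins outside these clades, heparin cofactor II (Serpind1) had 106 and 94 counts and antithrombin (Serpinc1) 24 and 39. Opposite-strand genes overlap 34.4% of the exon bases of Serpinc1 (Zbtb37) and 24.8% of those of Serpine3 (Ints6). Some or all of the few counts of Serpinc1 and Serpine3 could therefore belong to the neighbour. The neuronal Serpini1 had 5 and 4 counts, and Serpini2 had none.

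Serpins were set beside the genes of the proteins they act on. Urokinase, encoded by Plau, had 113 and 99.6 TPM (106 ± 9.54), its receptor Plaur 55.7 and 36.5 TPM and tissue plasminogen activator, Plat, 30.6 and 21.4 TPM. Serpinb2 RNA stood 5.74-fold and 11.2-fold above Plau. Plasminogen itself, Plg, had no count. In the list of 13 plasminogen and coagulation genes, 10 passed 1 CPM, and the next highest besides Plau were the protease receptor F2rl1 at 101 ± 7.07 TPM and thrombomodulin, Thbd, at 66.9 ± 8.13 TPM (SD, n = 2). The C1 proteases lay below their inhibitor, with C1s1 at 38.9 and 23.8 TPM and C1ra at 30.4 and 23.5 TPM, so that Serping1 was 6.73-fold and 6.48-fold above C1s1. Of that list of 8, 4 passed 1 CPM, with Masp1, a lectin pathway protease, next at 3.02 ± 1.57 TPM. All 10 procollagen folding genes passed, led by the disulfide isomerase P4hb at 354 ± 16.4 TPM, the prolyl isomerase Ppib at 251 ± 42.7 TPM and the lysyl hydroxylase Plod1 at 91.9 ± 3.31 TPM. RNA ratios do not give the balance of active enzyme and inhibitor, which was not measured.

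**Figure D3:**
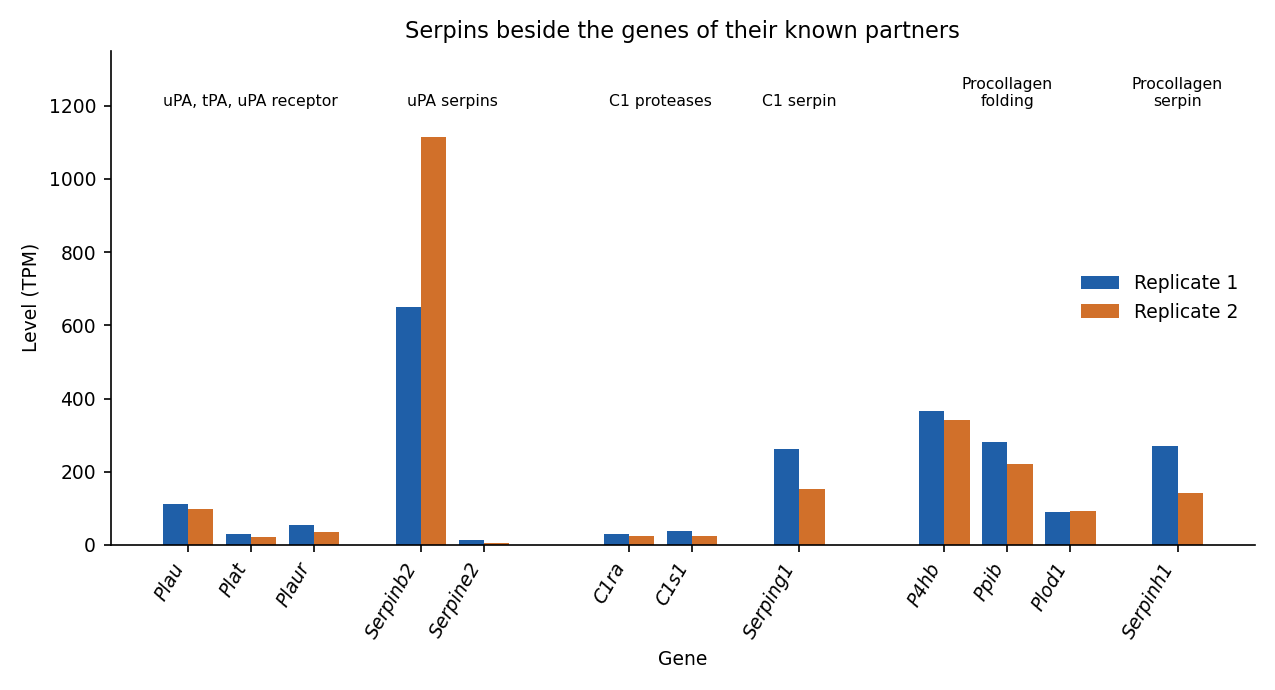
Level in TPM (linear axis from 0) of serpins and of genes whose proteins they act on or work with, as paired bars for replicates 1 and 2: urokinase (uPA, Plau), tissue activator (tPA, Plat) and the urokinase receptor (Plaur) with their serpins, the C1 proteases with Serping1, and procollagen folding genes with Serpinh1. Serpinb2 at 649 and 1114 TPM is the tallest pair, above Plau at 113 and 99.6 TPM.

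Other protease lists had uneven matches. The numbers of genes that passed 1 CPM, here and in the lists above, stand beside 31.3% of all listed genes. Of 13 epidermal serine proteases, 11 passed 1 CPM, with the secreted protease Htra1 at 286 ± 30.04 TPM, Tmprss4 at 58.5 ± 15.1 TPM and kallikrein Klk10 at 54.1 ± 9.65 TPM. All 10 cysteine proteases and caspases passed, with Ctsb at 1605 ± 253 TPM, Lgmn at 839 ± 58.0 TPM and Ctss at 493 ± 41.3 TPM. Of 8 granule proteases of immune cells, 2 passed, the mast cell chymases Mcpt4 and Cma1, at 10.5 ± 5.77 and 6.65 ± 5.84 TPM. The tryptase Tpsb2 followed at 3.32 ± 1.87 TPM, and Ctsg, Gzma and Gzmb had no count. Of 14 inhibitors from other families, 11 passed. The cystatin Cst3 at 1861 ± 117 TPM exceeded every serpin in both libraries, at 1778 and 1944 TPM, followed by Timp2 at 554 ± 53.2 and Cstb at 226 ± 8.16 TPM. Spink5, the kallikrein inhibitor lost in Netherton syndrome, had 43.2 and 41.97 TPM.

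The libraries were then compared with each other, gene by gene. Each gene's counts were set against the ratio of library totals by an exact binomial test, two-sided, and p-values were adjusted by Benjamini-Hochberg over the 23690 genes that had at least 10 counts. This test compares these 2 libraries and covers counting error only. It called 29 of the 37 serpins tested, beside 44.1% of all genes. Of all genes that passed 1 CPM in both libraries it called 54.3%, a narrower set than the 37 serpins, some of which lie below that level. In clade B, 8 of 16 tested genes were higher in replicate 2 (16.9% of all genes) and 5 were lower (27.2% of all genes). In clades A, E, F, G and H, 3 of 19 were higher and 13 lower. Over all genes 3993 were higher and 6443 lower, against 5508 and 4961 with TMM scaling, a trimmed mean of gene ratios, and 975 and 13554 when libraries were scaled to the epithelial junction list. As a log2 ratio (replicate 2 over 1, of CPM + 0.5) the median was 0.05 for clade B, -0.59 for clade A and -0.89 for clades E, F, G and H, against -0.07 for all genes tested. These are descriptions of the lists, with no test of the difference between clades.

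The clade B genes that were higher in replicate 2 were Serpinb2, Serpinb3b, Serpinb12, Serpinb7, Serpinb5, Serpinb6a and, below 1 CPM, Serpinb13 and Serpinb6c. Of these, 6 lie on chromosome 1. Ratios of CPM are given with exact (Clopper-Pearson) 95% intervals. Serpinb3b was 2.49-fold higher (1.78 to 3.54), Serpinb12 2.16-fold (1.81 to 2.59), Serpinb2 1.71-fold (1.68 to 1.74) and Serpinb7 1.69-fold (1.49 to 1.92). The differences of Serpinb5 and Serpinb6a were small, 1.18-fold and 1.14-fold, and turned to lower when the libraries were scaled to the epithelial junction list (log2 ratios of -0.09 and -0.15). The clade B genes lower in replicate 2 were Serpinb9, Serpinb11, Serpinb10, Serpinb1a and Serpinb8, at 0.682 to 0.945 of replicate 1. Serpinb1a and Serpinb8 lost their call with TMM scaling, where the log2 ratio of Serpinb8 turned to 0.0020. Spinous markers moved with the higher group: all 7 were higher in replicate 2, at a median log2 ratio of 0.69 and a sum of 3204 CPM in replicate 1 and 6353 CPM in replicate 2. Their part in the serpin differences was not tested.

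**Figure D4:**
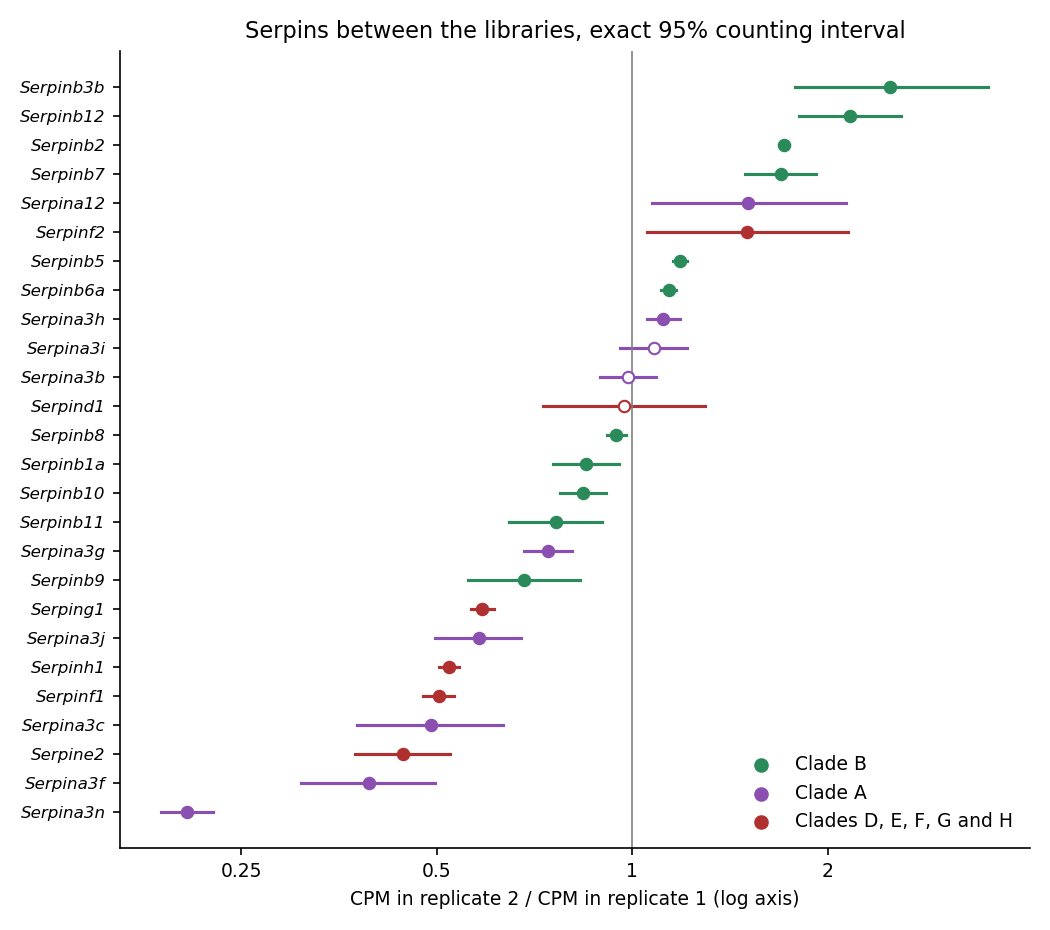
Ratio of CPM in replicate 2 over replicate 1 for serpins above 1 CPM in both libraries (1 of the 27 is not shown), on a log axis, with exact 95% intervals for counting error; filled points passed the binomial test at an adjusted p of 0.05 and open points did not. Serpinb5, Serpinb6a and Serpina3h, just above 1, fell below it with the junction scaling, and Serpinb8 rose to it with TMM. Clade B genes run from Serpinb9 at 0.682 to Serpinb3b at 2.49, and Serpine2, Serpinf1, Serpinh1 and Serping1 lie between 0.443 and 0.588.

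Serpine2, Serpinf1, Serpinh1 and Serping1 were lower in replicate 2 within a narrow band. Serpine2 had 0.443 of its replicate 1 CPM (0.374 to 0.524), Serpinf1 0.503 (0.476 to 0.532), Serpinh1 0.522 (0.504 to 0.540) and Serping1 0.588 (0.565 to 0.611). Serpine3 was lower too, at 0.443 (0.245 to 0.769), and Serpinf2 was the exception in the other direction at 1.499 (1.05 to 2.15), a call that ended without the filter on low counts and with the junction scaling. Fibroblast markers moved with these genes: all 10 were lower in replicate 2, at a median log2 ratio of -0.96. Beside it, Serping1 had -0.76, Serpinh1 -0.94, Serpinf1 -0.98 and Serpine2 -1.11. Mural markers, 5 of 5 tested lower, had a median of -0.91 and summed to 340 and 190 CPM. The mural marker left untested, Tagln, had 0 and 5 counts. Procollagen folding genes, 9 of 10 lower, had a median of -0.34. The part of fibroblasts and mural cells in these serpin differences was not tested.

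Serpina3 genes differed in size and, with library totals, in direction. Of 10 tested, 7 were lower in replicate 2, Serpina3h was 1.12-fold higher (1.05 to 1.18) but lower with the junction scaling, and Serpina3i and Serpina3b did not pass, at 1.08 (0.957 to 1.21) and 0.985 (0.892 to 1.09). With the junction scaling all 10 were called lower, at log2 ratios of -0.18 for Serpina3h, -0.22 for Serpina3i and -0.35 for Serpina3b. Serpina3n was 4.84-fold lower in replicate 2 (4.42 to 5.31), on 2966 and 559 counts. Its log2 ratio of -2.24 lay beyond that of every fibroblast marker, and the part of fibroblasts or other cells in it was not tested. Serpina3f was 2.54-fold lower, Serpina3c 2.04-fold, Serpina3j 1.72-fold and Serpina3g 1.35-fold. Serpina3k had 29 counts in replicate 1 and 3 in replicate 2, and Serpina3m had 25 and 1. One end of the cluster runs in the order Serpina3k, Serpina3m, Serpina3n. Serpina3k and Serpina3m share 60 exon bases with each other on the same strand in GENCODE M21. With 1 to 3 counts on one side their ratios are loose, 8.82-fold with an interval of 2.73 to 45.3 for Serpina3k. By edgeR's exact test, which adds a spread estimated from these same 2 libraries, 2 of the 37 serpins passed, Serpina3n at an adjusted p of 0.00701 and Serpina3m at 0.0413, beside 0.274% of all genes. Both were lower in replicate 2, as were 0.198% of all genes. For every other serpin the adjusted p by that test was 0.1001 or higher.

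The protease and inhibitor lists are given by their calls, to be read beside 16.9% of all tested genes higher and 27.2% lower in replicate 2. The same binomial test called 6 of 13 epidermal serine proteases higher in replicate 2 and 4 lower, and 4 of 10 cysteine proteases and caspases higher and 5 lower. Among plasminogen and coagulation genes 3 of 11 tested were higher and 6 lower, and among inhibitors of other families 3 of 13 were higher and 5 lower. Only lower genes were called among the C1 and contact proteases, 3 of 6 tested, and the granule proteases, 3 of 4. Of the remaining cell type lists, granular and cornified markers had a median log2 ratio of 0.35, junction markers 0.33, basal markers 0.32, macrophage markers 0.06, Schwann cell markers -0.03 and bulge and upper follicle markers -0.08. Sebaceous markers had -0.53, endothelial -0.55, hair shaft and inner root sheath -0.64 and melanocyte -0.67. Mast cell markers, 3 of 3 tested lower, had -0.98, and neutrophil and T and NK cell markers, with 2 tested each, had 0.36 and -0.40. With the junction scaling the basal median turned to -0.02 and the macrophage median to -0.27, and with TMM the bulge median turned to 0.0031.

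**Figure D5:**
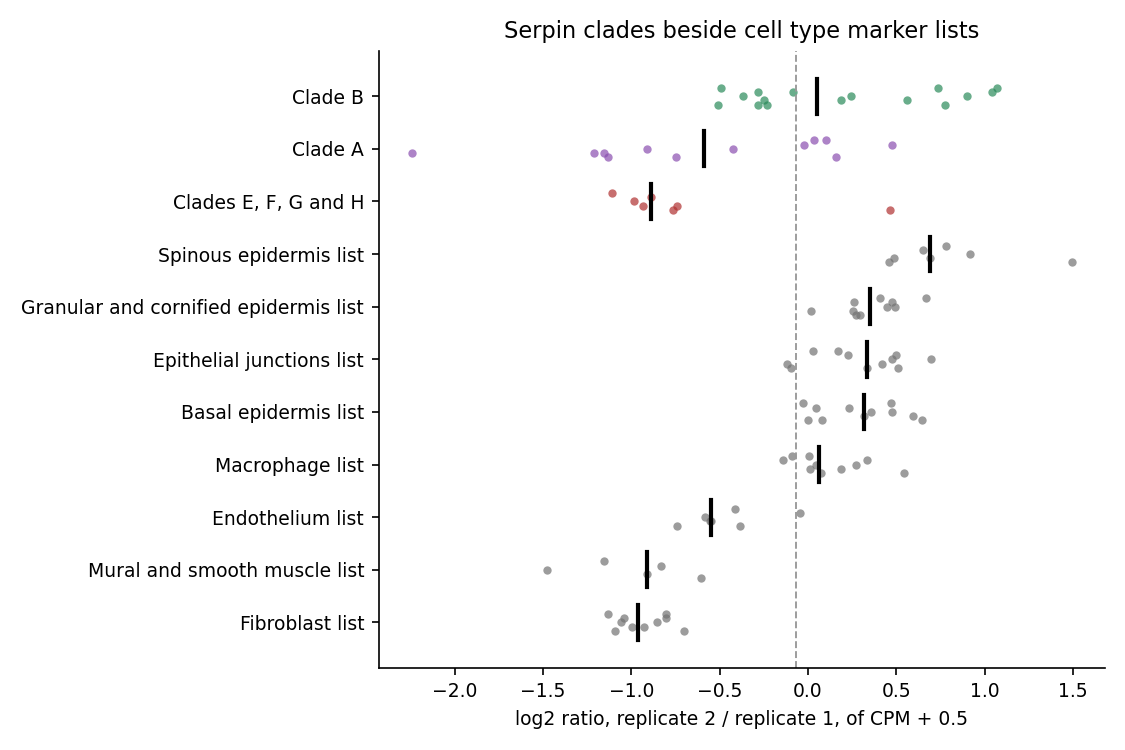
Log2 ratio of replicate 2 over replicate 1 (CPM + 0.5) for each tested serpin by clade and each marker gene of 8 cell type lists; points are genes, black bars are medians and the dashed line is the median of all tested genes at -0.07. Clades E, F, G and H, at a median of -0.89, lie beside the mural and fibroblast lists, while clade B spans both sides of the dashed line. Other marker lists are not plotted, among them mast cell at -0.98, melanocyte at -0.67, bulge and upper follicle at -0.08 and neutrophil at 0.36.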

How the data were processed

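RNA counts per gene came from the deposited tables of 2 libraries of rRNA-depleted total RNA, sequenced as paired-end reads of 150 bases per the labels' protocols. The authors made the raw counts with featureCounts on mm39, per the submitters' processing notes; the sources used here give no annotation, strand setting or treatment of multiply mapped reads. Exons of Serpinb6a overlap opposite-strand genes in GENCODE M21 (Nqo2 over 14.1% of its exon bases), and Serpinb2 shares 291 exon bases with Serpinb10 on the same strand, so these counts may hold reads of either gene. The same holds for Serpinc1, with Zbtb37 over 34.4% of its exon bases, and Serpine3, with Ints6 over 24.8%, both on the opposite strand. CPM used the library total (1 CPM was 36.7 and 33.5 counts), and TPM the deposited gene length. Binomial tests, with a threshold of 0.05, used scipy 1.17.1. The binomial step was tested on simulated counts with sampling noise only, which leaves out any further spread between libraries. edgeR 4.0.16 gave TMM factors and an exact test whose common dispersion (coefficient of variation 23.4%) was estimated by treating both libraries as 1 group, and DESeq2 1.42.0 gave size factors. Intervals and floors cover only counting error, as PCR copies cannot be told from separate molecules. Named are the members at 1 CPM or more in both libraries, except 1 that is counted in its group and not reported here, others chosen after their values were seen, and the 3 highest genes of each protease and inhibitor list. The members and lists were chosen with earlier results of these data known. Of the list genes, Loricrin alone was not matched by name. Promoter sequences are RefSeq's on GRCm38.p6, which is not the build of the counts.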

Additional observations from a re-analysis of the deposited data

How the results depend on the processing

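The clade medians depended on how members were counted. The difference of clade B minus clades A, E, F, G and H was -1.67 with a pseudocount of 0.1, -0.65 with 1, 0.0038 over genes with 10 or more counts and 3.50 with lettered copies summed, and lay between -1.07 and -0.86 with 1 library left out. The clade B share of the family was 54.1% without the gene Serpinb2 (46.0% in replicate 1 and 62.2% in replicate 2). Scaled to the epithelial junction list, which moved the median of all genes from -0.07 to -0.34, clade B had 5 higher and 8 lower genes and clades A, E, F, G and H had 0 higher, with medians of -0.26 and -1.10. The log2 ratios were then -0.18 for Serpina3h, -0.22 for Serpina3i, -0.091 for Serpinb5 and -0.15 for Serpinb6a, and the medians -0.017 for the basal and -0.27 for the macrophage list. With TMM and with DESeq2 size factors clade B had 3 lower genes. TMM put Serpinb8 at 0.0020 and the bulge and upper follicle list at 0.0031. Without the filter on low counts, 1 gene of clades A, E, F, G and H was higher. edgeR's exact test called 0 clade B genes higher and 0 lower, against 8 and 5 by the binomial test, and 0 higher and 2 lower in the other clades. Over all genes, the split of calls was 3993 higher and 6443 lower, 5508 and 4961 with TMM, 5365 and 5071 with size factors, 975 and 13554 with the junction list, and 18 and 47 by edgeR. No paired analysis was possible because the series has 1 group. Serpins with fewer than 10 counts were not tested.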
